A study of Mus musculus with 15 samples.

Results

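The mRNA levels of 10 histone deacetylase genes, Hdac1, Hdac2, Hdac3, Hdac4, Hdac5, Hdac6, Hdac7, Hdac9, Hdac10 and Hdac11, were followed in mouse whole lung after bleomycin, a DNA-damaging agent used to induce lung fibrosis. The genes were chosen by symbol, and Hdac5 and Hdac11 were singled out because their counts were already known to fall after day 0. For that reason the changes of Hdac5 and Hdac11 are given as a description, with no test, and the other 8 genes were tested. The 10 genes are 10 of 33340 rows of the count table, and all 10 were among the 17457 genes that passed a filter on low counts. The libraries were made to follow the transcriptome of the lung as fibrosis develops. Male C57BL/6 mice aged 10 to 12 weeks received 5 U/kg bleomycin by the intratracheal route, and poly(A) RNA of the whole lung was sequenced in 4 libraries each of days 0, 7 and 14 and 3 of day 21, which are the n of every mean ± SD. Day 0 is the control group by the sample titles, no transgene or deletion was named in any group, and no vehicle-treated group was used here. The title of day 0 replicate 4 calls it a control but its treatment label names bleomycin, so the changes of Hdac5 and Hdac11 are also given without it. Because whole lung was sequenced, fewer cells of a type and less RNA per cell cannot be told apart.

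Histone deacetylases remove acetyl groups from lysines of histones and of other proteins. The class I enzymes followed here (Hdac1, Hdac2 and Hdac3) work in the nucleus inside co-repressor complexes, Hdac1 and Hdac2 in Sin3, NuRD and CoREST, and Hdac3 with NCoR or SMRT. The words family and class below cover only the 10 genes followed, and Hdac8 is not among them. Class IIa members (Hdac4, Hdac5, Hdac7 and Hdac9) have weak catalytic activity of their own, repress MEF2 transcription factors, and are moved out of the nucleus when kinases such as the CaM kinases, protein kinase D or the salt-inducible kinases phosphorylate them. Class IIb holds Hdac6, a mainly cytoplasmic deacetylase of tubulin, and Hdac10, a polyamine deacetylase. Hdac11 is the lone class IV enzyme and removes long-chain fatty acyl groups. Inhibitors of these enzymes have long been studied in models of fibrosis, and Hdac7 is known for its role in endothelial cells.

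Sequences are shown for the promoters of the pair of genes that was selected on its fall, because this is the stretch where their transcription begins. Each runs 5′ to 3′ on the strand of the gene, from 250 bases before to 50 bases after the start site in RefSeq (GRCm38.p6), with the GC box (GGGCGG, or CCGCCC when read from the opposite strand) in capitals. Hdac11 lies on the plus strand, with its window at chr6:91156565-91156864, and Hdac5 on the minus strand, with its window at chr11:102230123-102230422.
Hdac11: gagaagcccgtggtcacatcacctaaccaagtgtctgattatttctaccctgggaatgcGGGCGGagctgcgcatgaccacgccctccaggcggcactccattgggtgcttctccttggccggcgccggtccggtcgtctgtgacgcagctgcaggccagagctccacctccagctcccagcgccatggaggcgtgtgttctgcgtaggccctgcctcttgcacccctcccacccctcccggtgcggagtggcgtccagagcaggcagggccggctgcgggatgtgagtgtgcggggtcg
Hdac5: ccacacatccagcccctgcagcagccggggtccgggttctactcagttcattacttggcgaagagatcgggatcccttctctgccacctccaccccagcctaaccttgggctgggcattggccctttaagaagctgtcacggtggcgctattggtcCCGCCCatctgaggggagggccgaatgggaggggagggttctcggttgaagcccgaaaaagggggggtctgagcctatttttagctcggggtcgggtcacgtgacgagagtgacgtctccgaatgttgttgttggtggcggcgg

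Both windows were GC-rich. The Hdac11 window had a GC content of 66.7% with 22 CpG dinucleotides, and the Hdac5 window had 60.7% with 18, against medians of 52.7% and 7 over 32851 promoters of the same length. Each held 1 GC box, a motif found on either strand in 35.7% of all promoters. Counting both strands, CCAAT occurred 2 times in the Hdac5 window and 1 time in that of Hdac11 (37.4% of all promoters hold it), and TGACG, which is part of a cAMP response element, occurred 2 times and 1 time (20.8% hold it). The letters TATAAA were in neither window and in 13.6% of all promoters. The E-box CACGTG, which was searched after the sequences had been seen, occurred 1 time in the Hdac5 window and in 7.15% of all promoters. Across the windows of the other members found by symbol, GC boxes ranged from 0, in those of Hdac9 and most of those of Hdac7, to 5 in the window of Hdac4 and in that of Hdac6. CpG dinucleotides ranged from 0 in a window of Hdac9 to 36 in that of Hdac2.

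Every library was deep enough to count all 10 genes. Libraries held 15652008 to 18020661 counts, and 22100 to 23970 genes had at least 1 count. Hdac7 had the most counts of the family, 2737 to 5507 per library, and Hdac11 the fewest, 53 to 176, so the values of Hdac11 carry the largest counting error. The share of counts that 16 mitochondrial genes took was uneven within days: it was 2.28% and 2.31% in day 0 replicates 1 and 2 but 4.22% and 4.04% in replicates 3 and 4, 2.03% to 2.15% at day 7, 2.102% in day 14 replicate 1 against 3.74% to 4.14% in the others, and 2.66% to 4.01% at day 21. No batch is given in the labels. The lung identity of the samples was plain from 7 epithelial markers such as Sftpc and Scgb1a1, whose summed level was 53689 to 69210 CPM (counts scaled to the size of each library) at day 0 and 10162 to 14926 CPM at day 21.

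The order of the 10 genes at day 0 was set on levels per length, as CPM per kb of all annotated exons of a gene. Day 0 replicate 4, the library with conflicting labels, is included in it. Hdac7 stood first at 38.2 ± 6.34 CPM per kb (SD, n = 4), followed by Hdac1 at 24.8 ± 2.41 CPM per kb. Hdac5 (15.2 ± 1.62 CPM per kb) and Hdac2 (15.1 ± 1.39 CPM per kb) came next, and their libraries overlapped. Hdac3 at 10.3 ± 1.78 CPM per kb overlapped with Hdac10 at 6.85 ± 1.99 CPM per kb. Hdac6 was at 3.53 ± 0.669 CPM per kb, while Hdac11 (2.39 ± 0.267 CPM per kb) and Hdac4 (2.33 ± 0.264 CPM per kb) overlapped. Hdac9 was the lowest, at 0.707 ± 0.0889 CPM per kb. Exon length bears on the low end of this order: with the longest transcript of each gene as the length, Hdac4 moved up to rank 7, ahead of Hdac6 (rank 8) and Hdac11 (rank 9), while the other 7 genes kept their ranks.

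**Figure D1:**
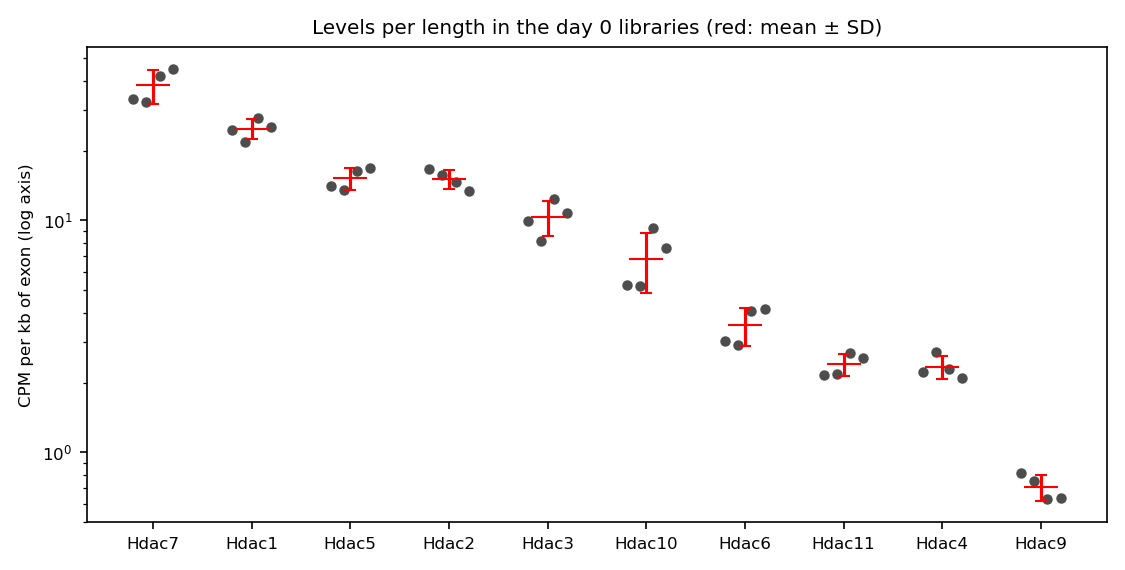
Level per length of the 10 histone deacetylases in the 4 day 0 libraries, in CPM per kb of exon on a log axis, where points are libraries and red bars the mean ± SD. The genes run from Hdac7 at 38.2 to Hdac9 at 0.707 CPM per kb, and the points of Hdac5 and Hdac2, of Hdac3 and Hdac10, and of Hdac11 and Hdac4 overlap.

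Hdac11 (ENSMUSG00000034245, GRCm38 chr6:91156665-91174692, plus strand) had the largest change of the family in the fitted values of all 3 comparisons with day 0. Its level in CPM was 8.28, 8.40, 10.3 and 9.82 in day 0 replicates 1 to 4. At day 7 the libraries read 5.66, 3.91, 6.15 and 3.86 CPM, at day 14 3.37, 3.51, 3.03 and 5.19 CPM, and at day 21 4.39, 4.67 and 3.94 CPM. Every one of the 11 bleomycin libraries lay below the lowest day 0 library, and the 3 later days overlapped with each other. Hdac11 was chosen for its fall, and 30.8%, 31.1% and 35.5% of all genes tested did not overlap with day 0 at days 7, 14 and 21. The day 0 mean was 9.21 ± 1.03 CPM, and the means of days 7, 14 and 21 were 4.90 ± 1.18, 3.77 ± 0.965 and 4.33 ± 0.369 CPM, or 53.1%, 41.0% and 47.0% of the day 0 mean. The log2 fold changes from day 0 were -0.91 (SE 0.21), -1.29 (SE 0.21) and -1.09 (SE 0.23). Leaving out day 0 replicate 4, the library with conflicting labels, gave -0.90, -1.27 and -1.08. Reads of Hdac11 may include those of 2 transcripts annotated on the opposite strand, since nothing states that strand was used in counting. Gm44002 covers 594 exonic bases, or 15.4% of the exons of Hdac11, and was not analysed here, while Gm14573 covers 96 bases and had 0 to 2 counts in a library.

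Hdac5 (ENSMUSG00000008855, GRCm38 chr11:102194432-102230166, minus strand) fell to about the same level at all 3 times. Its day 0 libraries were at 123.4, 118.7, 142.9 and 147.6 CPM. The day 7 libraries were at 86.0, 89.6, 97.5 and 85.4 CPM, those of day 14 at 75.2, 83.0, 94.2 and 81.6 CPM, and those of day 21 at 81.7, 87.1 and 87.6 CPM. As for Hdac11, all 11 bleomycin libraries were below the lowest day 0 library and the later days overlapped. From a day 0 mean of 133.1 ± 14.2 CPM, the level went to 89.6 ± 5.56, 83.5 ± 7.91 and 85.4 ± 3.26 CPM on the later days. Log2 fold changes were -0.57 (SE 0.10), -0.67 (SE 0.10) and -0.64 (SE 0.11), and without day 0 replicate 4 they were -0.54, -0.64 and -0.62. The size of the day 7 change lay just under a fold change of 1.5 and those of days 14 and 21 just over it.

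**Figure D2:**
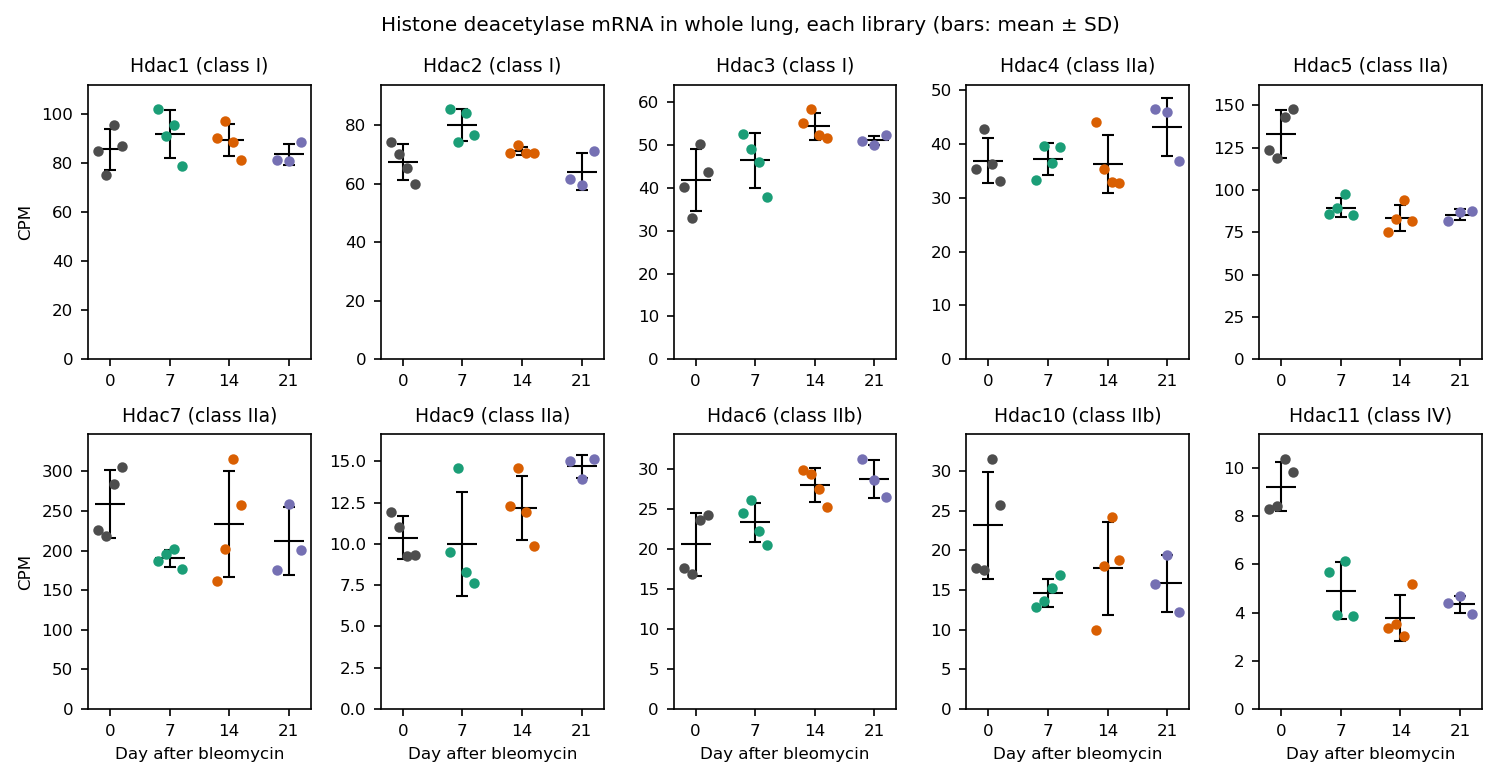
Level of each histone deacetylase in CPM (linear axes from 0) in every library against the day after bleomycin, with black bars for the mean ± SD of 4, 4, 4 and 3 libraries. All 11 points of days 7, 14 and 21 lie below the 4 day 0 points for Hdac5 and Hdac11, the pair of genes chosen for its fall.

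The changes of Hdac5 and Hdac11 were also computed within libraries of like mitochondrial share, as a description of the values they were chosen on. Among the day 0 and day 7 libraries under 2.5%, which are day 0 replicates 1 and 2 and all of day 7, the day 7 log2 fold change was -0.45 (SE 0.09) for Hdac5 and -0.78 (SE 0.24) for Hdac11. Among libraries over 3.5%, day 0 replicates 3 and 4 against day 14 replicates 2, 3 and 4, the day 14 log2 fold change was -0.76 (SE 0.13) for Hdac5 and -1.38 (SE 0.28) for Hdac11. With the share as a covariate in all 15 libraries the day 7 values were -0.44 and -0.76, the day 14 values -0.70 and -1.31, and the day 21 values -0.65 and -1.10. Marker genes of several cell types also differed from day 0, in both directions. Of 8 endothelial markers such as Pecam1 and Cdh5, 3, 3 and 1 passed both thresholds as lower at days 7, 14 and 21, and their summed level went from 3201 to 3658 CPM at day 0 to 2227 to 2878, 1745 to 2891 and 2236 to 2804 CPM, with no marker at 0 in any group. Of the 7 epithelial markers 2, 4 and 6 were lower, and of 6 neutrophil markers 5, 3 and 5 were lower, with summed neutrophil levels of 417.5 to 958.0 CPM at day 0 and 85.4 to 176.3 CPM at day 21. Of 4 adipocyte markers tested 1, 4 and 3 were lower, with summed levels of 19.2 to 51.6 CPM at day 0 and 1.004 to 3.64 CPM at day 14. Of 6 fibroblast and matrix markers 3, 4 and 5 were higher, and calls for cycling and macrophage markers, given with Hdac3 and Hdac6, were mostly higher. Cardiac muscle markers, 7 in all, were at 293.3 and 204.9 CPM in sum in day 0 replicates 3 and 4, where Hdac5 and Hdac11 were also highest, against 29.3 and 49.6 CPM in replicates 1 and 2. They stood apart in day 7 replicate 4 (664.5 CPM) and day 21 replicate 1 (777.5 CPM), and 2 were lower at day 14. In that day 7 library Hdac5 (85.4 CPM) and Hdac11 (3.86 CPM) were at their lowest of the day. In that day 21 library Hdac5 (81.7 CPM) was at its lowest of the day and Hdac11 (4.39 CPM) was between the others. Skeletal muscle markers were high in the same 4 libraries, at 15.8 to 51.3 CPM in sum against 1.29 to 3.37 CPM in the other 11. The part of these cell types in the levels of Hdac5 and Hdac11 was not tested.

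For the 8 tested genes, a call needed both an adjusted p below 0.05 and more than a 1.5-fold change in edgeR's quasi-likelihood fit, the p being adjusted by the Benjamini-Hochberg method over 17457 genes. None of the 8 was called at the 3 later days against day 0, where 16.1%, 23.1% and 22.5% of all genes tested were called. Unadjusted p was under 0.05 for 3, 2 and 3 of the 8 genes, beside 38.2%, 43.3% and 40.5% of all genes. DESeq2 called 1 of them, Hdac10, at day 7 and none at days 14 and 21, beside 9.84%, 13.3% and 13.1% of all genes. Limma voom called none of them at any of the 3 times, beside 15.5%, 22.8% and 22.4% of all genes. By the adjusted p alone, with no fold threshold, edgeR passed 0, 2 and 1 of the 8, beside 25.0%, 33.1% and 29.8% of all genes. Libraries did not overlap with day 0 for 2 of the 8 genes at each time: Hdac7 and Hdac10 were lower at day 7, Hdac3 and Hdac6 higher at day 14, and Hdac6 and Hdac9 higher at day 21. Among all genes tested, 30.8%, 31.1% and 35.5% did not overlap with day 0, so the counts of the family were no more than near the background. The median log2 fold change of the 8 genes was 0.06, 0.07 and 0.09, beside 0.01, 0.02 and 0.02 over all genes.

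**Figure D3:**
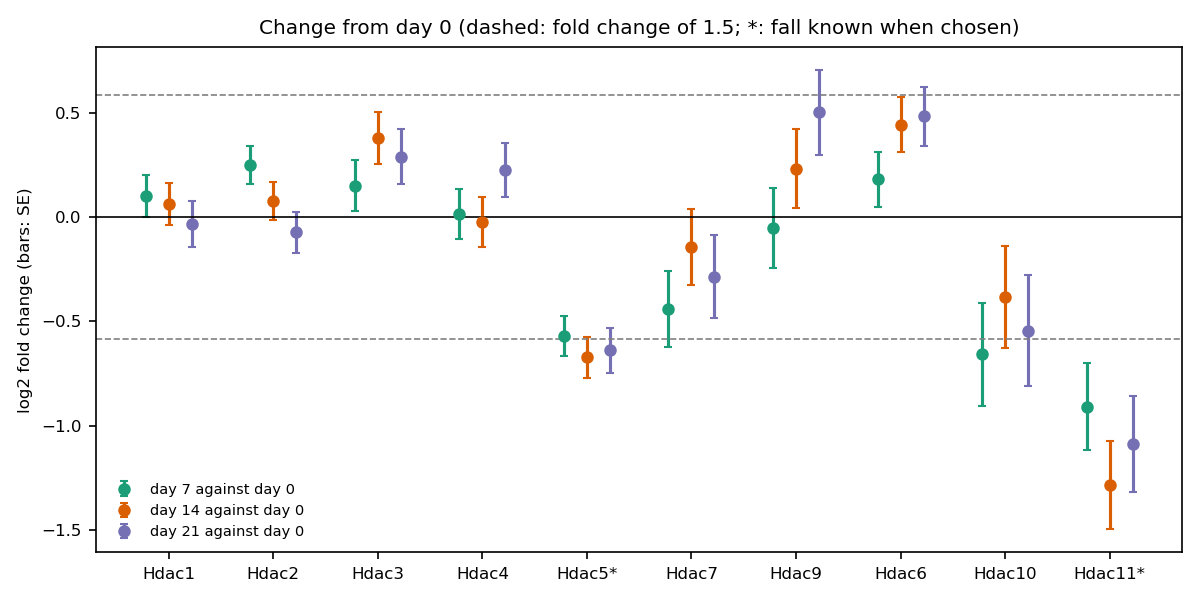
Log2 fold change of each histone deacetylase from day 0 at days 7, 14 and 21 (points, with SE bars), with dashed lines at a fold change of 1.5 in either direction and asterisks on the pair of genes chosen for its fall. Hdac11 lies lowest at -0.91, -1.29 and -1.09. Points outside the dashed lines belong to Hdac5, Hdac10 and Hdac11 only, and the points of Hdac6 are above 0 and those of Hdac10 below it.

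Of the class I genes, Hdac1 overlapped with its day 0 level on all later days. Hdac1 (ENSMUSG00000028800, GRCm38 chr4:129516104-129542713, minus strand) ranged from 75.3 to 95.5 CPM at day 0 and from 78.7 to 101.8 CPM over the 11 bleomycin libraries, so all days overlapped. Its log2 fold changes were 0.10, 0.06 and -0.03, with 95% intervals of the fold change of 0.924 to 1.24 at day 7, 0.900 to 1.21 at day 14 and 0.832 to 1.15 at day 21. A fold change of 1.5 in either direction was thus outside the interval at each time. Hdac1 has processed copies elsewhere in the genome that may share its reads: Gm10093 on chromosome 17 is 99.4% identical over 1444 bases and had 56 to 111 counts in a library, next to 1245 to 1798 for Hdac1.

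Hdac2 (ENSMUSG00000019777, GRCm38 chr10:36974544-37001889, plus strand) was at its highest at day 7. The libraries were at 74.4, 70.1, 65.5 and 59.9 CPM at day 0 and 85.4, 74.2, 84.1 and 76.8 CPM at day 7, where 3 of 4 exceeded every day 0 library. The day 14 libraries were at 70.5, 73.1, 70.4 and 70.4 CPM, and those of day 21 at 61.7, 59.5 and 71.2 CPM. The day 7 log2 fold change from day 0 was 0.25 (SE 0.09, edgeR adjusted p = 0.0571), which missed the threshold. Day 21 was lower than day 7 by a log2 difference of -0.32 (SE 0.10, edgeR adjusted p = 0.0443), with no overlap of the libraries. That comparison passed by the adjusted p, as did 12.6% of all genes, but not by the fold, and the adjusted p was 0.216 with the mitochondrial share in the fit and 0.0907, 0.105, 0.0661, 0.115 and 0.126 when day 7 replicate 1, 3 or 4 or day 21 replicate 1 or 2 was left out.

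Hdac3 (ENSMUSG00000024454, GRCm38 chr18:37935844-37955016, minus strand) was higher at day 14. It read 40.2, 33.1, 50.3 and 43.9 CPM at day 0 and 52.7, 49.1, 46.2 and 37.8 CPM at day 7. The day 14 values were 55.3, 58.4, 52.3 and 51.6 CPM, and the day 21 values 51.1, 50.0 and 52.3 CPM. All 4 day 14 libraries and 2 of 3 day 21 libraries were above the highest day 0 library, whereas day 7 overlapped. Log2 fold changes were 0.15 (SE 0.12, edgeR adjusted p = 0.394), 0.38 (SE 0.12, edgeR adjusted p = 0.0277) and 0.29 (SE 0.13, edgeR adjusted p = 0.114). The day 14 rise is below a fold change of 1.5, and its adjusted p was 0.0881, 0.117, 0.0548, 0.0712 and 0.0924 without day 0 replicate 1, 2 or 4 or day 14 replicate 1 or 2.

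Among the class IIa genes, Hdac7 was lower in every day 7 library than at day 0 and spread widely on the later days. Hdac7 (ENSMUSG00000022475, GRCm38 chr15:97792664-97844502, minus strand) was at 226.3, 217.9, 284.3 and 304.8 CPM at day 0 and at 187.4, 195.6, 201.6 and 176.6 CPM at day 7, so the groups did not overlap. The day 14 libraries spread from 161.7 to 315.1 CPM and those of day 21 from 175.7 to 259.1 CPM, overlapping with day 0. Log2 fold changes were -0.44 (SE 0.18, edgeR adjusted p = 0.0886), -0.14 (SE 0.18, edgeR adjusted p = 0.580) and -0.29 (SE 0.20, edgeR adjusted p = 0.302). The day 7 value was -0.14 with the mitochondrial share in the fit and -0.24 among libraries under 2.5%. Of the 8 endothelial markers 3, 3 and 1 were lower, and the median of their summed level was 3463 CPM at day 0 and 2469, 2418 and 2347 CPM on days 7, 14 and 21, while the mean of Hdac7 was 258.3, 190.3, 233.9 and 211.8 CPM. Their part in the level of Hdac7 was not tested.

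Hdac4 and Hdac9, the other class IIa genes, did not pass the test at any time. Hdac4 (ENSMUSG00000026313, GRCm38 chr1:91928779-92195699, minus strand) spanned 33.1 to 42.8 CPM in the day 0 libraries and 33.4 to 39.5, 32.8 to 44.0 and 36.8 to 46.4 CPM in those of days 7, 14 and 21, all overlapping. Its fold change from day 0 had 95% intervals of 0.844 to 1.21, 0.823 to 1.18 and 0.964 to 1.41. On the opposite strand of Hdac4 the lincRNA Gm26720 covers 22.4% of its exonic bases. Hdac9 (ENSMUSG00000004698, GRCm38 chr12:34047580-34917095, minus strand) read 11.9, 11.0, 9.27 and 9.32 CPM at day 0 and 9.52, 14.6, 8.29 and 7.61 CPM at day 7. The day 14 libraries were at 12.3, 14.6, 11.9 and 9.90 CPM and the day 21 libraries at 15.03, 13.9 and 15.1 CPM. The 3 day 21 libraries stood above all day 0 libraries. At day 21 the log2 fold change of Hdac9 from day 0 was 0.50 (SE 0.20, edgeR adjusted p = 0.0750), with a 95% interval of the fold change of 1.05 to 1.91. Against day 7 it was 0.55 (SE 0.20, edgeR adjusted p = 0.0808), and 1 library decided that value: without day 7 replicate 2 it was 0.79 (edgeR adjusted p = 0.0135), which passed both thresholds.

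Class IIb holds Hdac6 and Hdac10. Hdac6 (ENSMUSG00000031161, GRCm38 chrX:7930120-7947889, minus strand) read 17.6, 16.8, 23.6 and 24.2 CPM at day 0 and 24.4, 26.1, 22.2 and 20.5 CPM at day 7. At day 14 it read 29.8, 29.3, 27.5 and 25.2 CPM, and at day 21 31.2, 28.6 and 26.4 CPM. All libraries of days 14 and 21 were above every day 0 library, while day 7 overlapped. The log2 fold changes were 0.18 (SE 0.13, edgeR adjusted p = 0.332), 0.44 (SE 0.13, edgeR adjusted p = 0.0174) and 0.48 (SE 0.14, edgeR adjusted p = 0.0175), so Hdac6 rose at days 14 and 21 by the adjusted p, at fold changes of 1.36 and 1.40. Without 1 of several libraries the adjusted p no longer passed. At day 14 the adjusted p was 0.0775, 0.0792, 0.0584 and 0.0582 without day 0 replicate 1 or 2 or day 14 replicate 1 or 2. At day 21 it was 0.0769, 0.0760, 0.108 and 0.0642 without day 0 replicate 1 or 2 or day 21 replicate 1 or 2.

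Within the libraries over 3.5% mitochondrial share the day 14 log2 fold changes were smaller, 0.18 for Hdac6 (SE 0.15, edgeR adjusted p = 0.444) and 0.19 for Hdac3 (SE 0.14, edgeR adjusted p = 0.382). With the share as a covariate they were 0.43 (edgeR adjusted p = 0.0116) and 0.37 (edgeR adjusted p = 0.0246). Fitting the 2 groups alone gave an edgeR adjusted p of 0.0701 for Hdac3 at day 14 and 0.0636 and 0.0704 for Hdac6 at days 14 and 21, and testing with no filter on low counts gave 0.0705, 0.0494 and 0.0585. Markers of macrophages and of cycling cells were higher at these times. Of 7 macrophage markers such as Adgre1 and Cd68, 5 were called higher at day 14, with a summed level of 401.5 to 458.6 CPM at day 0 and 693.7 to 1552 CPM at day 14. At day 21, 3 of the macrophage markers were higher and 1 lower. Of 6 cycling markers such as Mki67, 6 were higher at day 14 and 5 at day 21, with summed levels of 27.7 to 51.0 CPM at day 0 and 207.1 to 282.9 CPM at day 14. Their part in the levels of Hdac3 and Hdac6 was not tested.

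Hdac10 (ENSMUSG00000062906, GRCm38 chr15:89123307-89128700, minus strand) had lower means on all days after bleomycin, with a wide spread. It was at 17.8, 17.6, 31.5 and 25.7 CPM in day 0 replicates 1 to 4 and at 12.9, 13.6, 15.2 and 16.9 CPM at day 7, with no overlap. Day 14 libraries were at 9.93, 18.05, 24.2 and 18.8 CPM and day 21 libraries at 15.8, 19.5 and 12.3 CPM, and both groups overlapped with day 0. Log2 fold changes were -0.66 (SE 0.25, edgeR adjusted p = 0.0600), -0.38 (SE 0.24, edgeR adjusted p = 0.245) and -0.55 (SE 0.27, edgeR adjusted p = 0.137). The 95% interval of the fold change at day 7 was 0.441 to 0.908. By DESeq2 the day 7 log2 fold change was -0.68 with an adjusted p of 0.0329.

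The level of Hdac10 differed with the mitochondrial share inside days 0 and 14, but not in the same order inside days 7 and 21. At day 0 the pair of libraries under 2.5% were at 17.6 and 17.8 CPM and the pair over 3.5% at 25.7 and 31.5 CPM, and at day 14 the library under 2.5% was at 9.93 CPM and those over 3.5% at 18.05 to 24.2 CPM. At day 21 the library with a share of 4.01% was at 15.8 CPM, that with 3.18% at 19.5 CPM and that with 2.66% at 12.3 CPM, and at day 7, where shares were 2.03% to 2.15%, the library with the highest share had the lowest level, 12.9 CPM. With the share as a covariate the day 7 log2 fold change was -0.08 (SE 0.17, edgeR adjusted p = 0.805), while those of day 14 and day 21 were -0.51 (SE 0.15, edgeR adjusted p = 0.0154) and -0.57 (SE 0.16, edgeR adjusted p = 0.0131). Within the libraries under 2.5% the day 7 value was -0.29 (SE 0.15, edgeR adjusted p = 0.197), and within those over 3.5% the day 14 value was -0.50 (SE 0.18, edgeR adjusted p = 0.0931).

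**Figure D4:**
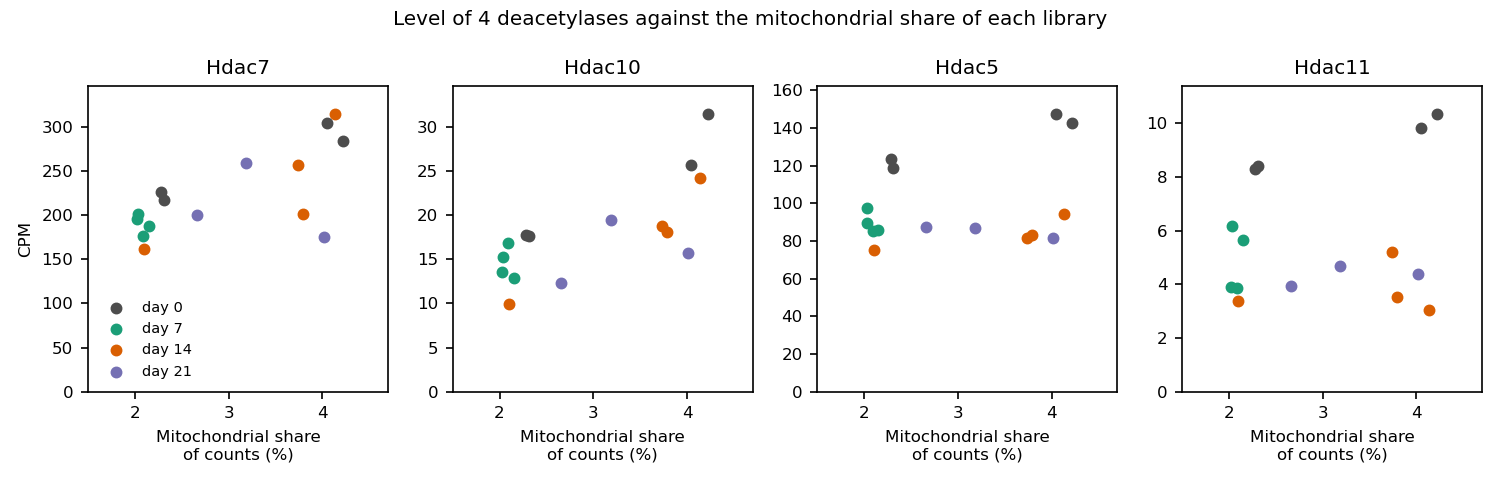
Level of Hdac7, Hdac10, Hdac5 and Hdac11 in CPM against the share of counts from mitochondrial genes in percent, with 1 point per library coloured by day. Day 0 points at shares near 4% lie above day 0 points near 2.3% in each panel. For Hdac5 and Hdac11, chosen for their fall, all points of later days lie below all day 0 points, while those of Hdac7 and Hdac10 overlap with day 0 in part.

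Comparisons between the later days gave no calls in the family. None of the 8 tested genes was called for day 14 against day 7, day 21 against day 7 or day 21 against day 14, where 6.0%, 9.54% and 0.0% of all genes were called. Unadjusted p was under 0.05 for 0, 3 and 0 of the 8 (25.0%, 30.0% and 9.82% of all genes), namely Hdac2, Hdac6 and Hdac9 for day 21 against day 7. DESeq2 called none of the 8, where it called 1634, 2235 and 101 of 32890 genes. Limma voom also called none of them, where it called 995, 1669 and 0 of 17457 genes.

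By class, the share of class IIa in the summed level per length was lower at day 7. Class IIa genes held 47.2 ± 2.25% of the summed CPM per kb of the 10 genes at day 0 and 38.7 ± 1.74%, 41.3 ± 5.40% and 41.8 ± 3.72% on days 7, 14 and 21. Class I genes held 42.2 ± 3.02% and then 52.2 ± 2.13%, 49.0 ± 5.75% and 48.1 ± 4.09%. As shares of a single sum these move together: the summed level of class I was 50.3 ± 3.78 CPM per kb at day 0 and 56.0 ± 5.19 CPM per kb at day 7, and that of class IIa 56.4 ± 7.69 and 41.4 ± 2.23 CPM per kb. Within class IIa the lower genes at day 7 were Hdac7 (38.2 to 28.2 CPM per kb) and Hdac5, chosen for its fall (15.2 to 10.2). Hdac4 (2.33 to 2.35) and Hdac9 (0.707 to 0.682) stayed close to day 0. The day 7 log2 fold change of Hdac7 was -0.14 with the mitochondrial share in the fit. The shares of day 7 did not overlap with those of day 0 in either class, and class IIa spanned 45.1% to 50.4% at day 0 and 36.2% to 39.8% at day 7. Days 14 and 21 overlapped with day 0 in both classes, with class IIa at 35.9% to 47.3% and 39.1% to 46.1%. Hdac11 alone makes up class IV, which went from 2.00% to 1.18%, 0.871% and 1.06% of the sum. Class IIb stayed between 7.83% and 9.03% on average. These shares include Hdac5 and Hdac11 and are a description.

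Genes that work with the deacetylases were described as lists. Of 71 partner genes in 10 lists, which held complex subunits, MEF2 factors, export kinases, sirtuins, acetyltransferases and bromodomain readers, 70 were tested. At day 7, 2 were called higher and 2 lower (5.71% of the list, beside 16.1% of all genes). At day 14 the counts were also 2 and 2 (5.71% beside 23.1%), and at day 21 they were 3 and 2 (7.14% beside 22.5%). By the adjusted p alone 17, 19 and 12 of the 70 passed, or 24.3%, 27.1% and 17.1%, beside 25.0%, 33.1% and 29.8% of all genes, so the list was near the background at day 7. The median log2 fold change of the partners was -0.12, -0.08 and -0.06. No gene of the NuRD, CoREST, NCoR and SMRT, RBBP, MEF2 or BET lists was called at any of the 3 times.

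Sap30, a subunit of the Sin3 complex that holds Hdac1 and Hdac2, was the 1 called gene of 11 in its list at each time. That was 9.09% of the list, beside 16.1%, 23.1% and 22.5% of all genes. Its day 0 mean of 8.18 ± 1.499 CPM was followed by 12.8 ± 1.09, 14.4 ± 2.52 and 13.0 ± 3.92 CPM, with log2 fold changes of 0.64, 0.81 and 0.66 (edgeR adjusted p = 0.0258, 0.00506 and 0.0258). The other 10 Sin3 genes were not called, and the median of the list was -0.19, -0.18 and -0.16.

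Of 12 kinases that phosphorylate class IIa deacetylases, 1 was called higher and 1 lower at days 7 and 14 (16.7% of the list, beside 16.1% and 23.1% of all genes), and 2 higher and 2 lower at day 21 (33.3% beside 22.5%). Camk1d, a CaM kinase, rose from 19.8 ± 3.57 CPM at day 0 to 31.7 ± 3.68, 29.8 ± 7.40 and 36.6 ± 6.33 CPM, with log2 fold changes of 0.68, 0.59 and 0.88 (edgeR adjusted p = 0.0136, 0.0200 and 0.00303). Sik1, a salt-inducible kinase, fell from 212.3 ± 95.4 CPM at day 0 to 127.5 ± 20.1, 98.9 ± 8.85 and 109.6 ± 17.3 CPM, with log2 fold changes of -0.74, -1.10 and -0.95 (edgeR adjusted p = 0.0347, 0.00263 and 0.0126). At day 21 the related Camk1 was also higher (0.60, edgeR adjusted p = 0.00297) and Prkd2, a protein kinase D, lower (-0.83, edgeR adjusted p = 0.0148), named here because the count is small.

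In the contrasts with day 0, a gene of the sirtuin and acetyltransferase lists was called at 1 time only. Sirt4, a mitochondrial sirtuin, fell from 17.4 ± 5.23 to 9.96 ± 1.20 CPM at day 7 (log2 fold change -0.81, edgeR adjusted p = 0.0167), and it was the 1 called gene of 7 sirtuins (14.3%, beside 16.1% of all genes). Kat6a, a lysine acetyltransferase, fell from 166.8 ± 32.8 to 110.1 ± 26.2 CPM at day 14 (log2 fold change -0.60, edgeR adjusted p = 0.0187), the 1 called gene of 12 acetyltransferases (8.33%, beside 23.1% of all genes). With the mitochondrial share as a covariate no partner gene was called at day 7, 5 were at day 14 and 5 at day 21, beside 7.27%, 24.0% and 23.7% of all genes. The day 7 count of 4 rested on single libraries: leaving out day 0 replicate 3 or 4 gave 1 and 0 (12.5% and 12.1% of all genes), and leaving out day 7 replicate 1 or 2 gave 2 and 1 (11.8% and 12.5%).

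**Figure D5:**
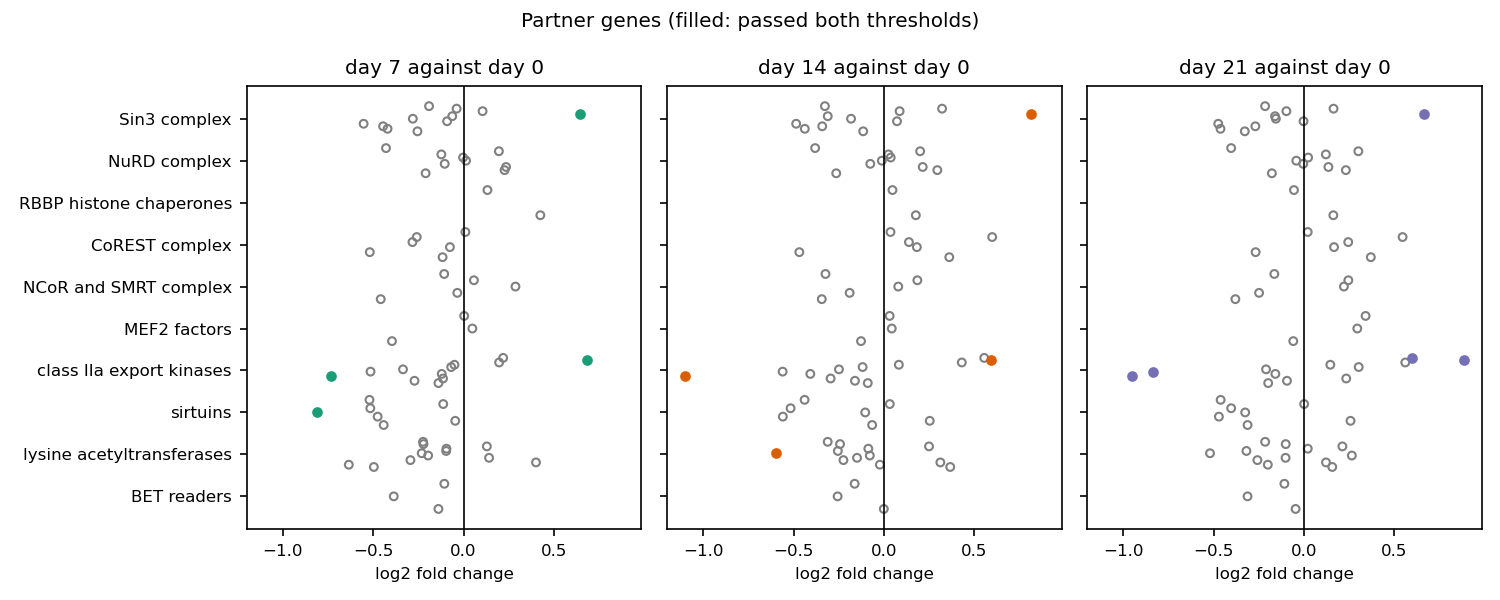
Log2 fold change from day 0 of the 70 tested partner genes, by list, at days 7, 14 and 21, where each circle is a gene and filled circles passed both thresholds. Filled circles number 4, 4 and 5, and they lie in the Sin3, export kinase, sirtuin and acetyltransferase lists.

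The genes most like Hdac5 and Hdac11 over the 15 libraries were found by the root mean square difference of log2 CPM after centring each gene, among 11757 genes of at least 5 CPM on average. For Hdac5 they were St5 (0.0821), Spop (0.114), a substrate adaptor of a ubiquitin ligase, and Patz1 (0.117), a zinc finger transcription factor, against a median of 0.405 over the genes compared. Spop went from 418.2 ± 30.6 CPM at day 0 to 272.3 ± 26.7, 250.3 ± 17.4 and 263.3 ± 19.3 CPM. For Hdac11 they were Ccrl2 (0.218), an atypical chemokine receptor, Calcoco1 (0.229) and Rnase4 (0.236), a secreted ribonuclease, against a median of 0.616. Ccrl2 went from 41.0 ± 3.04 CPM at day 0 to 22.4 ± 2.37, 17.2 ± 2.53 and 20.3 ± 3.07 CPM. These differences are a description over libraries that share the same days and depth.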

How the data were processed

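Poly(A) RNA of 15 whole-lung samples was sequenced. The deposited values are raw gene counts that the authors made by trimming reads, aligning them to mm10 (GRCm38) with HISAT2 2.1.0, dropping multi-mapped reads and counting with HTSeq 0.6.0. The annotation release and the strand setting are not given in the sources used here. Dropping multi-mapped reads lowers the counts of genes with near-identical copies. The study used DESeq2 (1.40.2 per the submitters' processing notes).

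Of 33340 Ensembl IDs, 33267 matched GENCODE M21, and rows without a match held 0.00889% of counts. Genes were filtered with filterByExpr, scaled by TMM and fitted over all 15 libraries in edgeR 4.0.16 (R 4.3.3) with the quasi-likelihood test as the main test of the counts, and DESeq2, the tool of the study, was run as an alternative. The thresholds, adjusted p below 0.05 with more than a 1.5-fold change, follow the study. CPM used TMM-scaled totals. Group n is 4, 4, 4 and 3. The study calls the libraries of a day biological replicates, and their spread exceeded counting error in every pair. Alternatives included DESeq2 1.42.0, limma voom 3.58.1, other scalings and filters, and leaving out each library. Copies were found with BLAST 2.17.0 (at least 90% identity over 200 bases). Promoter sequences come from RefSeq, in which those of 2 genes were not found by symbol. The promoter of Hdac3 is not reported here.

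The members, gene lists and tests were chosen with earlier results of these data known. Named genes were the 10 members, the called gene of each partner list with the largest rise and fall in each contrast with day 0, and the 3 genes most like Hdac5 and Hdac11 (at least 5 CPM). Replicate numbers do not pair the samples.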

Additional observations from a re-analysis of the deposited data

Results flagged for a closer look

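Hdac2 in day 14 replicate 2 stood at 73.1 CPM, away from the other 3 day 14 libraries at 70.4, 70.4 and 70.5 CPM, by a gap that takes up most of the range of the group. The group is narrow, with an SD of 1.33 CPM around a mean of 71.1 CPM. It was 1 of 30 groups of 4 libraries examined over the 10 genes, and chance marks about 5% of such groups.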

How the results depend on the processing

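Among the values of single genes under the alternatives, 22 changed sign and 8 passed both thresholds where the main test did not. The day 7 change of Hdac5, -0.57, lay over a fold change of 1.5 with RLE factors (-0.60), a mean of at least 1 CPM (-0.61), no filter (-0.59), length and GC offsets (-0.65), DESeq2 (-0.60) and the 2 groups alone (-0.60), and it was -0.65 to -0.54 with 1 library left out. Of the 8 tested deacetylases, 1 (Hdac10) was called at day 7 with no filter on low counts, a mean of at least 1 CPM, length and GC offsets, DESeq2 or the 2 groups alone, with log2 fold changes of -0.67, -0.70, -0.70, -0.68 and -0.69 (adjusted p 0.0379, 0.0492, 0.0332, 0.0329 and 0.0209), and the count was 0 to 1 when 1 library was left out, 1 without day 0 replicate 1 (-0.80, adjusted p 0.0408) or replicate 2 (-0.80, adjusted p 0.0390). In the same order, 8.84%, 17.1%, 16.7%, 9.84% and 18.8% of all genes were called, and 16.2% and 16.5% without those day 0 libraries. With no fold change threshold 2 passed at day 14, 1 at day 21 and 1 (Hdac2) for day 21 against day 7 (all genes 33.1%, 29.8% and 12.6%). Under both thresholds, leaving out 1 library gave 0 to 1 for day 21 against day 7, the 1 being Hdac9 without day 7 replicate 2. Without that library 1510 of 17425 genes were called. With the mitochondrial share in the fit, the day 7 change of Hdac5 was -0.44. Partner genes called numbered 17, 19 and 12 at days 7, 14 and 21 with no fold change threshold (all genes 25.0%, 33.1% and 29.8%), and 0 at each under glmTreat (all genes 4.03%, 10.1% and 10.0%). The day 7 number was 0 with that share in the fit and 0 in libraries under 2.5% (all genes 7.27% and 12.8%), 2 at day 14 in libraries over 3.5% (17.7%), and 3 at day 21 with the 2 groups alone (21.6%). Leaving out 1 library gave 0 to 6 at day 7 (all genes 11.8% to 16.5%), 3 to 6 at day 14 (19.6% to 23.7%) and 3 to 6 at day 21 (18.8% to 21.4%), with 3 without day 0 replicate 4 or day 21 replicate 1. With the longest transcript the ranks of Hdac4, Hdac6 and Hdac11 were 7, 8 and 9. The cause of these shifts was not tested.

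Deviations of libraries with the same replicate number correlated at -0.24 to 0.40, not all above 0.1, so the numbers were not taken as pairs. With the replicate block the partner count at day 21 was 3, those of days 7 and 14 were 4 and 4, and 0 deacetylases were called at each time. Of all genes, 16.7%, 23.6% and 21.5% were called with that block at days 7, 14 and 21.

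Changes of sign were in values close to 0. Hdac4 at day 7 was -0.0143 with RLE factors, -0.00195 with no filter, -0.0220 with a mean of at least 1 CPM, -0.107 with the mitochondrial share in the fit, -0.0465 with length and GC offsets, -0.0116 by DESeq2, -0.0138 with the 2 groups alone, -0.0866 in libraries under 2.5%, and -0.0557 to 0.0679 with 1 library left out. Hdac9 at day 7 was -0.291 to 0.0567 with 1 library left out. At day 14 Hdac4 was 0.0446 with the offsets and -0.151 to 0.0321 with 1 library left out, and Hdac1 was -0.0443 in libraries over 3.5% and -0.0196 to 0.106 with 1 library left out. The count of Hdac11, at most 176 in a library, limits its precision.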
